A study of Mus musculus with 6 samples.

Results

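The regions described here carried an H3K27ac peak in RAW264.7 cells lacking Mfp2 and no overlapping peak in wild-type cells or in cells lacking Bmal1. They were chosen by the peak lists themselves. Peaks of the 3 lists were merged on chromosomes 1 to 19 where they shared at least 1 bp, and a merged region was kept when it held Mfp2KO peaks only and its summed Mfp2KO tags, given per 10 M tags of the library, came to 15 or more. This left 1987 of 38990 merged regions, out of 5224 with Mfp2KO peaks alone at any tag value. The other 3237 fell under the minimum. Because presence in one list, absence from the others and the tags were all used to choose the regions, everything read from these lists is a description, and no test of the regions against other regions or between genotypes was made.

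RAW264.7 is a macrophage-like mouse line transformed with Abelson leukaemia virus. The study profiled it in 3 genotypes, labelled wild-type, Bmal1 knockout and Mfp2 knockout, all grown in serum-containing medium with no stimulus named in the labels. The 6 libraries were a ChIP and its input for each genotype, with no replicate, so no spread between replicates can be given. The labels do not say how the knockouts were made, or whether each is 1 clone or a pool, and differences between these libraries cannot be told apart from differences between clones. Positions are in mouse build mm39. The gene and promoter tables used here are of an older build, so no region was assigned to a gene, no sequence is shown, and neither macrophage marker genes nor the knocked-out genes were checked.

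Acetylation of histone H3 at lysine 27 is laid down mainly by the acetyltransferases p300 and CBP. It marks promoters and enhancers in use, and in macrophages it is gained and lost at enhancers as cells respond to signals. MFP2, encoded by Hsd17b4, carries out the hydration and dehydrogenation steps of peroxisomal β-oxidation, a pathway that shortens very long-chain and branched fatty acids. BMAL1 is a transcription factor of the circadian clock.

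The libraries differed in how much of their signal lay in peaks. The ChIP depth was 15.8 M tags for both wild type and Mfp2KO and 12.5 M for Bmal1KO. Peaks took up 57.1% of the Mfp2KO tags, against 38.7% for wild type and 37.4% for Bmal1KO, so the Mfp2KO share was 1.48 times the wild-type one. In the 12001 regions with exactly 1 peak in each list, the median ratio of Mfp2KO to wild type was 1.70 for tags per kb and 1.18 for fold over input. A peak entered a list only at 4-fold or more over the input of its own genotype. The tags of wild type and Bmal1KO at a place where they had no peak are not in these lists, and a missing peak is not a missing mark.

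The Mfp2KO-only regions were short and, for the most part, weak, as were regions called in either other genotype alone. Each consisted of a single Mfp2KO peak. Their tags ran from 15.2 to 685.4, with a median of 25.3 and quartiles of 18.7 and 42.5. Their median length was 917 bp, with quartiles of 754 and 1219 bp, and 1132 of the 1987 were shorter than 1 kb. At the short end, 216 were 500 bp long, the size of the single window with which the caller starts, and at the long end 76 exceeded 2 kb. Regions called in all 3 genotypes, under the same minimum of Mfp2KO tags, had a median of 2318 bp and 292.5 tags. Under the same rule the median was 860.5 bp and 19.9 tags in regions called in Bmal1KO only, and 1329 bp and 23.1 tags in regions called in wild type only. The Mfp2KO-only regions together held 1.37% of the tags in Mfp2KO peaks and 4.63% of their called length.

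The minimum of 15 tags cut through a continuous range. The regions just inside it, on chromosome 13 (6110098-6110860), chromosome 7 (7377103-7377732) and chromosome 19 (17322044-17322933), each had 15.2 tags, with 6.5-fold, 4.87-fold and 4.87-fold enrichment. Those just outside, on chromosome 11 (3193714-3194341), chromosome 16 (3780659-3781594) and chromosome 3 (15224579-15225349), each had 14.9 tags, with 4.77-fold, 19.09-fold and 5.45-fold enrichment.

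Enrichment over input lay close to the limit of the lists for most of these regions. The median was 5.05-fold and the quartiles were 4.50-fold and 6.09-fold, against medians of 6.33-fold in regions shared with wild type alone, 6.09-fold in regions shared with Bmal1KO alone and 12.1-fold in regions shared by all genotypes. Regions called in Bmal1KO only had nearly the same values as the Mfp2KO-only ones, with a median of 5.05-fold and quartiles of 4.46-fold and 6.05-fold, and those called in wild type only had a median of 5.92-fold. A low fold was thus not particular to Mfp2KO. Of the 1987 regions, 951 were under 5-fold, or 47.9%, whereas 12.2% of all regions with 15 or more Mfp2KO tags were that low. Only 52 reached 12-fold.

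Among the 17137 regions with 15 or more Mfp2KO tags, the 1987 made up 11.6% (95% Wilson interval 11.1 to 12.1). Intervals on shares cover the counting of regions only. The share went down with tags and, separately, with enrichment. It was 49.8% (47.0 to 52.6) of 1203 regions with 15 to 20 tags, 22.6% (20.7 to 24.6) of 1755 with 30 to 50 tags, 3.97% (3.23 to 4.88) of 2166 with 100 to 200 tags, and 0.241% (0.156 to 0.373) of 8285 with 200 or more. By enrichment it was 45.5% (43.4 to 47.6) of 2090 regions under 5-fold and 0.745% (0.569 to 0.976) of 6978 at 12-fold or more. Within the class of 15 to 20 tags it still went from 68.7% (64.3 to 72.7) under 5-fold to 21.7% (15.7 to 29.1) at 8 to 12-fold, and was 24.1% (16.0 to 34.5) at 12-fold or more. A region with few tags just above the input limit was thus more often in Mfp2KO only than not.

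**Figure D1:**
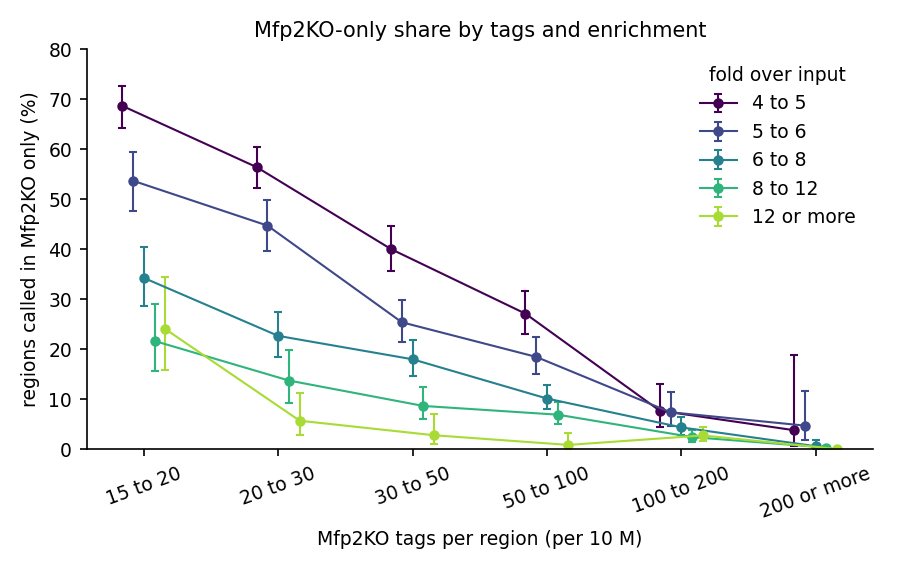
Share of regions called in Mfp2KO only (%, vertical axis) among regions with an Mfp2KO peak, by Mfp2KO tags per region (per 10 M, horizontal axis, in 6 classes) and by fold over input (colours, 5 classes). Points are shares and bars 95% Wilson intervals; in the class of 15 to 20 tags the share was 68.7% under 5-fold and 21.7% at 8 to 12-fold, and with 200 or more tags it was under 5% in every fold class.

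The same rule applied to the other genotypes gave 2166 regions in wild type only and 856 in Bmal1KO only. These were 11.1% (10.7 to 11.6) of 19437 regions with 15 or more wild-type tags and 5.33% (4.99 to 5.69) of 16060 with 15 or more Bmal1KO tags. With 1 library per genotype, these intervals do not show whether genotypes differ. At higher minima, with tags as deposited, the counts were largest in Mfp2KO. With 50 or more tags there were 397 in Mfp2KO only, 188 in wild type only and 53 in Bmal1KO only. With 100 or more there were 106, 18 and 15, and with 200 or more 20, 6 and 5. The 106 were among 10451 regions with 100 or more Mfp2KO tags, and the 20 among 8285 with 200 or more. The numbers of wild-type and Bmal1KO regions that reach these minima are not given, so these counts are not compared as shares.

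Much of that difference moved with the scaling of the tags. When the tags of each knockout were divided by the ratio of its share of tags in peaks to that of wild type, the number in Mfp2KO only at a minimum of 15 was 1225, below the 2166 of wild type. At 50 tags the numbers were then 187 and 188, at 100 tags 44 and 18, and at 200 tags 5 and 6. The order of the genotypes at the strong end therefore depended on the minimum once tags were scaled. This scaling changes only the tags and leaves the calling of peaks as deposited.

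**Figure D2:**
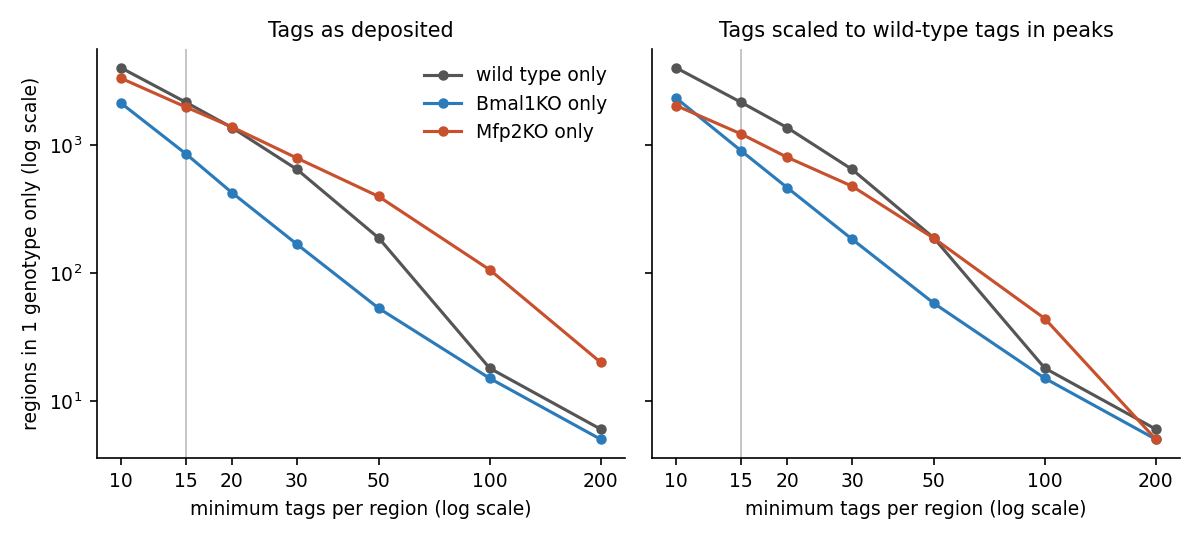
Number of regions called in 1 genotype only (vertical axis, log scale) against the minimum of tags per region (horizontal axis, log scale), for wild type, Bmal1KO and Mfp2KO, with tags as deposited (left) and scaled to the share of wild-type tags in peaks (right). The grey line marks the minimum of 15; at 100 tags the Mfp2KO line stands at 106 on the left and at 44 on the right, above the 18 of wild type in both.

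Input chromatin, sequenced without antibody in a library of its own, was denser under the Mfp2KO-only regions than under other Mfp2KO regions in the same class of summed tags, for the classes under 200 tags. Classes were matched on summed tags only. Within them the Mfp2KO-only regions were shorter and had a lower fold, with a median of 753 against 886.5 bp and 4.95-fold against 6.19-fold in the class of 15 to 20 tags, so a value per kb carries the difference in length. Fold is a ratio to input, so at like tags a lower fold and more input are largely the same observation. Input also entered the choice through the fold limit, so the input values too are a description. In the class of 15 to 20 tags the median was 6.24 input tags per kb in the 599 Mfp2KO-only regions and 3.99 in the 604 called in another genotype too. In the class of 20 to 30 tags it was 7.08 and 4.44, and in the class of 50 to 100 tags 10.4 and 6.44. Among regions of 200 or more tags the order was reversed, with 15.03 in 20 Mfp2KO-only regions and 15.8 in 8265 others, and the ranges between quartiles overlapped in every class.

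The difference in length held in the stronger classes too. In the class of 30 to 50 tags they were 1062 bp long at the median and held 35.2 ChIP tags per kb, compared with 1488 bp and 25.7 tags per kb for regions called elsewhere too. In the class of 100 to 200 tags the lengths were 1720 and 2122 bp and the densities 74.2 and 67.1 tags per kb. Above 200 tags the densities had the opposite order, at 122 and 184 tags per kb.

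**Figure D3:**
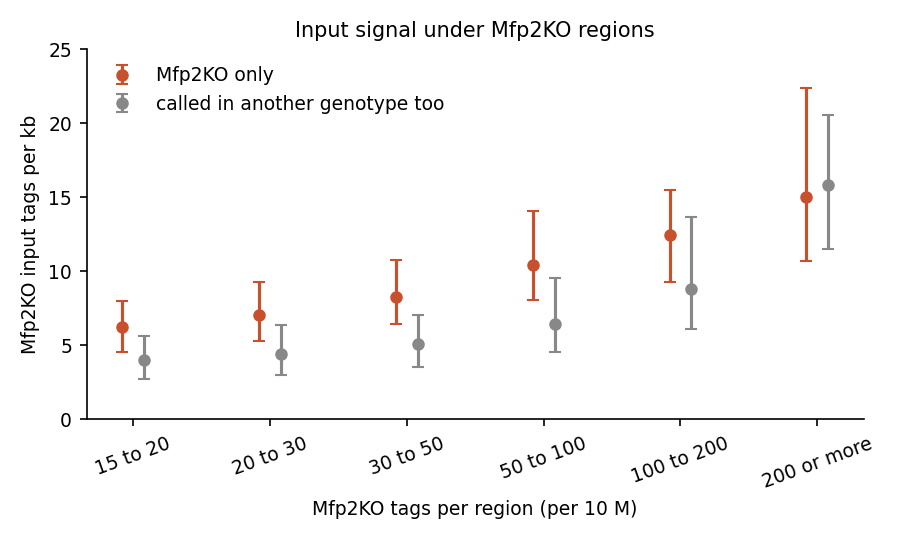
Mfp2KO input tags per kb (vertical axis) under regions with an Mfp2KO peak, by Mfp2KO tags per region (per 10 M, horizontal axis), for regions called in Mfp2KO only and regions called in another genotype too. Points are medians and bars quartiles over regions; the median of the Mfp2KO-only regions was the higher one in the 5 classes under 200 tags and the lower one above.

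Set against the wild-type list, most Mfp2KO-only regions had a tag density that wild-type peaks commonly reach. The median wild-type peak held 24.1 tags per kb, and 1452 of the 1987 regions, or 73.1%, were above that in Mfp2KO. After division by the ratio of tags in peaks it was 689, or 34.7%. Above the upper quartile of wild-type peaks, 49.4 tags per kb, lay 277 regions as deposited and 94 after that division. The divisor, 1.48, is smaller than the median ratio of 1.70 for tags per kb in regions with 1 peak in each list. Division by 1.70 would leave fewer regions above these levels and was not done.

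The 12 strongest regions held 223.4 to 685.4 tags over 1019 to 4854 bp. The first 2 lay on chromosome 11 and combined many tags with strong enrichment. At chromosome 11 (119988557-119991874) the Mfp2KO peak had 685.4 tags over 3317 bp, or 207 per kb, with 21.17-fold enrichment. The nearest wild-type peak, 10291 bp away, had 202 tags, and the nearest Bmal1KO peak, 10085 bp away, had 147.6. All genotypes had peaks in the surroundings, and only Mfp2KO had one at the region itself. At chromosome 11 (82654300-82656546) 462.6 tags lay in 2246 bp, or 206 per kb, with 25.78-fold enrichment. A wild-type peak of 14.9 tags was the closest in that list, at 12626 bp, while a Bmal1KO peak of 416.1 tags lay 14237 bp away. Their input was 12.5 and 10.2 tags per kb.

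Another 3 of the 12 stood out for their input. At chromosome 6 (47627513-47628898) 426.5 tags lay over 66.8 input tags per kb, at 5.91-fold. At chromosome 7 (37881812-37883417) 394.2 tags lay over 76.3 input tags per kb, at 4.12-fold. At chromosome 1 (170891572-170892591) 297.8 tags lay over 72.1 input tags per kb, at 5.19-fold. The median over all 1987 regions was 7.70 input tags per kb and the upper quartile 10.1, and 76.3 was the highest value of all. Whether the input of these 3 regions bears on their absence from the other lists was not tested.

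On chromosome 7, 2 more of the 12 were wide and reached 10-fold or more. The one at 43091098-43094704 had 277.6 tags over 3606 bp, with 12.06-fold enrichment and the nearest wild-type and Bmal1KO peaks 19814 and 20195 bp away. The one at 44272913-44275627 had 238.9 tags over 2714 bp, with 10.38-fold enrichment, and the distances were 18921 and 25245 bp. Each had 29.5 input tags. At chromosome 5 (130172736-130174705) 265.8 tags lay in 1969 bp at 8.02-fold, and the closest wild-type peak was 13729 bp away.

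The other 4 lay within 5 kb of a wild-type peak, as did the region at 170891572 on chromosome 1, at 3651 bp. At chromosome 9 (43665098-43669952) the region was the longest of all, 4854 bp with 247.1 tags, and a wild-type peak of 90.5 tags lay 1884 bp away. At chromosome 2 (92209892-92212601) 245.6 tags lay 2557 bp from a wild-type peak of 75 tags and 507 bp from the next Mfp2KO peak. At chromosome 3 (96184483-96186173) 234.8 tags lay 1679 bp from a wild-type peak of 51.6 tags, in a stretch where the 50 kb on each side held 2220 wild-type tags in 11 peaks and 3537 Mfp2KO tags in 13. At chromosome 1 (65146421-65150108) 223.4 tags in 3687 bp, at 10.23-fold, lay 1446 bp from a wild-type peak of 40.2 tags. The nearest Bmal1KO peak to that last region was 62074 bp away.

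Ranking by enrichment picked out a different set. Of the 10 regions with the highest fold, 21.52 to 47.11, 8 had 1 or fewer input tags, so that their fold rests on almost no input. They include chromosome 9 (71294857-71295626) and chromosome 12 (33385616-33386780), each with 18.4 tags over 0.5 input tags. The 2 exceptions were the region on chromosome 11 at 82654300 described above, with 23 input tags, and chromosome 7 (7123557-7124869). The latter had 72.6 tags over 3 input tags, at 31-fold, with wild-type and Bmal1KO peaks 8346 and 49793 bp away.

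Most Mfp2KO-only regions lay within 10 kb of a peak of another genotype. How far arbitrary places lie from such peaks was not examined. The median distance to the nearest wild-type or Bmal1KO peak was 3752 bp, with quartiles of 1051 and 11795 bp. Of the 1987, 484 lay within 1 kb, or 24.4% (22.5 to 26.3), and 567 lay over 10 kb away, or 28.5% (26.6 to 30.6). A further cut at 50 kb left 115 regions, or 5.79% (4.84 to 6.90). Bmal1KO-only regions had a median distance of 4404 bp and 25.5% (22.7 to 28.5) within 1 kb. Wild-type-only regions had a median of 4918 bp and 16.0% (14.5 to 17.6) within 1 kb. These intervals count regions of 1 library per genotype and do not show whether genotypes differ. The lists searched differ in length, as given below, and the part of list length in these distances was not tested.

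**Figure D4:**
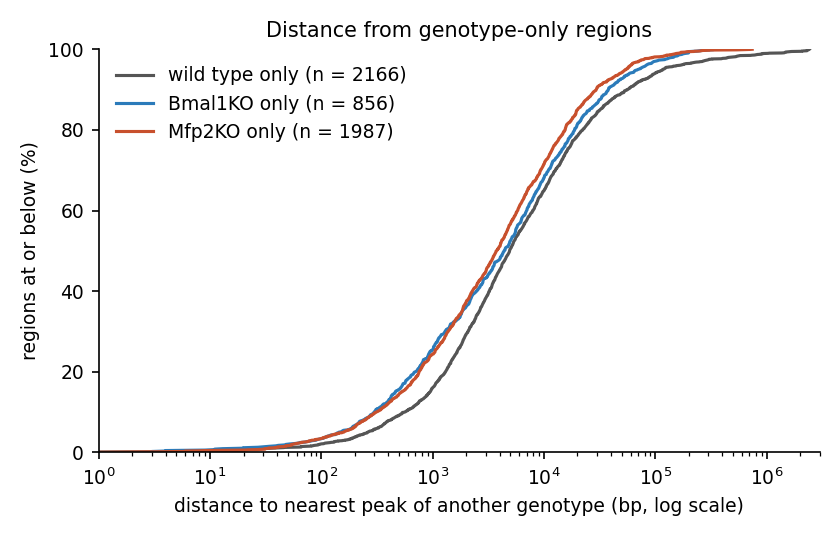
Share of regions (%, vertical axis) at or below a given distance from the nearest peak of another genotype (bp, horizontal axis, log scale), for regions called in wild type only, Bmal1KO only and Mfp2KO only with 15 or more tags. Lines are cumulative shares over regions; the Mfp2KO-only line reaches 50% at 3752 bp and the wild-type-only line at 4918 bp.

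Stronger Mfp2KO-only regions lay farther out, which was not examined for regions called in either other genotype only. They were also wider, with a median of 753 bp in the class of 15 to 20 tags and 1967.5 bp at 200 or more. A region that overlaps a peak of another genotype is left out by the rule. The part of width in these distances was not tested. The median distance was 3204 bp in the class of 15 to 20 tags, 4064 bp at 30 to 50 tags, 6931 bp at 100 to 200 tags and 10932.5 bp at 200 or more. The share within 1 kb went from 24.9% of 599 regions in the first of these classes to 12.8% of 86 and 5% of 20 in the last 2. The wild-type peak was the nearer one for 1320 regions and the Bmal1KO peak for 667. On chromosomes 1 to 19 the wild-type list held 28644 peaks, the Bmal1KO list 25190 and the Mfp2KO list 23983.

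The most isolated regions were modest in strength. The 10 farthest from any other genotype's peak had 16.2 to 51.3 tags and 4.14-fold to 10.33-fold enrichment, and lay 247130 to 741932 bp away. The farthest was chromosome 6 (36263216-36264230), with 28.2 tags at 10.33-fold and no other Mfp2KO peak within 742154 bp. The strongest of the 10 was chromosome 9 (116845276-116847509), with 51.3 tags over 2233 bp at 5.98-fold, 631477 bp from the nearest Bmal1KO peak. All 10 had no peak of any list within 50 kb beyond the region itself.

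The flanks of the regions held more tags in Mfp2KO than in wild type, over a shorter called length. Tags were summed over the peaks within 50 kb on each side, without the region itself. Other Mfp2KO-only regions in the flanks stayed in the Mfp2KO sum, and by the rule no wild-type peak overlaps them. The Mfp2KO to wild-type ratio around Mfp2KO-only regions is thus partly built in, and so is the lower one around wild-type-only regions. How large that part is was not tested. In the 1759 regions whose flanks had peaks in every list, the median ratio of Mfp2KO to wild-type flank tags was 1.53, with quartiles of 1.05 and 2.06, and of Bmal1KO to wild type 0.890. Around regions called in all genotypes the corresponding medians were 1.45 and 0.885, and around regions in both knockouts but not wild type 1.59 and 0.938. Around Bmal1KO-only regions they were 1.48 and 0.971, and around wild-type-only regions 1.04 and 0.716. Called length behind these sums was 8.05 kb in Mfp2KO and 10.3 kb in wild type at the median around the Mfp2KO-only regions. Tags per called kb were 99.9 and 53.4 there, with a median ratio of 1.73. That ratio was 1.78 around regions called in all genotypes, 1.76 around Bmal1KO-only regions and 1.60 around wild-type-only regions. The median number of flank peaks was 4 in each list around the Mfp2KO-only regions. By strength the median Mfp2KO to wild-type ratio ran from 1.48 in the class of 15 to 20 tags to 1.61 at 100 to 200 tags. The ratio of 1.48 over the whole lists, given above, is inside the quartiles of each of these sets.

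The regions lay on every chromosome from 1 to 19. Their share among regions with 15 or more Mfp2KO tags was lowest on chromosome 3, at 8.16% (6.43 to 10.3) of 772, and on chromosome 16, at 8.89% (6.82 to 11.5) of 574. It was highest on chromosome 5, at 13.5% (11.6 to 15.5) of 1204, and on chromosome 15, at 13.1% (11.0 to 15.7) of 792. The intervals of chromosomes 3 and 5 did not overlap, a pair picked as the extremes of 19. The ratio of Mfp2KO to wild-type input per kb in shared regions, relative to its median over all shared regions, was 1.00 on chromosome 3 and 0.994 on chromosome 5, and between 0.942 and 1.05 on all 19.

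The share was higher where regions were dense, but the count of regions includes the Mfp2KO-only ones. A rise of the share with that count is therefore partly built in. Windows were not ranked by the other regions alone. Chromosomes were cut into windows of 5 Mb, of which 298 held 20 or more regions. Their median share was 11.4%, and the range 0% to 27.3%. The 75 windows with the fewest regions, 20 to 29 each, held Mfp2KO-only regions at 9.60% (8.33 to 11.0), and the 75 with the most, 63 to 170 each, at 13.8% (13.0 to 14.6). The window with most of them was chromosome 8 from 120 to 125 Mb, with 30 of 144 regions, or 20.8%. Next came chromosome 2 from 30 to 35 Mb, with 29 of 148, and chromosome 11 from 115 to 120 Mb, with 25 of 164, which holds the strongest region. Then followed chromosome 2 from 165 to 170 Mb, with 24 of 116, and chromosome 15 from 75 to 80 Mb, with 23 of 164. Relative input of Mfp2KO to wild type was 0.970 or lower in these 5 windows, and 0.841 in the window at 165 Mb of chromosome 2.

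Some of the regions formed groups. Joined over gaps of up to 100 kb, the 1987 regions made 970 singles, 241 pairs and 146 groups of 3 or more with 535 regions in all. The largest group, on chromosome 8 (121045631-121311900), had 10 regions over 266 kb. They were individually modest, with 16.5 to 88.4 tags and 4.12-fold to 6.12-fold enrichment. The other Mfp2KO peaks in the same stretch held 6309 tags, 2.51 times the 2514 tags of wild type, while Bmal1KO had 3000 tags, or 1.19 times wild type. Those other Mfp2KO peaks covered 29.1 kb at 217 tags per kb, 1.84 times the 118 tags per kb of wild type. With the regions included, Mfp2KO covered 39.1 kb there with 18 peaks, wild type 21.4 kb with 11 and Bmal1KO 17.6 kb with 10. The ratio at the other peaks was thus above the list-wide ratio of 1.48 here. The strongest Mfp2KO peak there, at 217 to 222 kb from the first base, had 2411 tags, and the wild-type and Bmal1KO peaks at the same place had 984 and 1277.

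**Figure D5:**
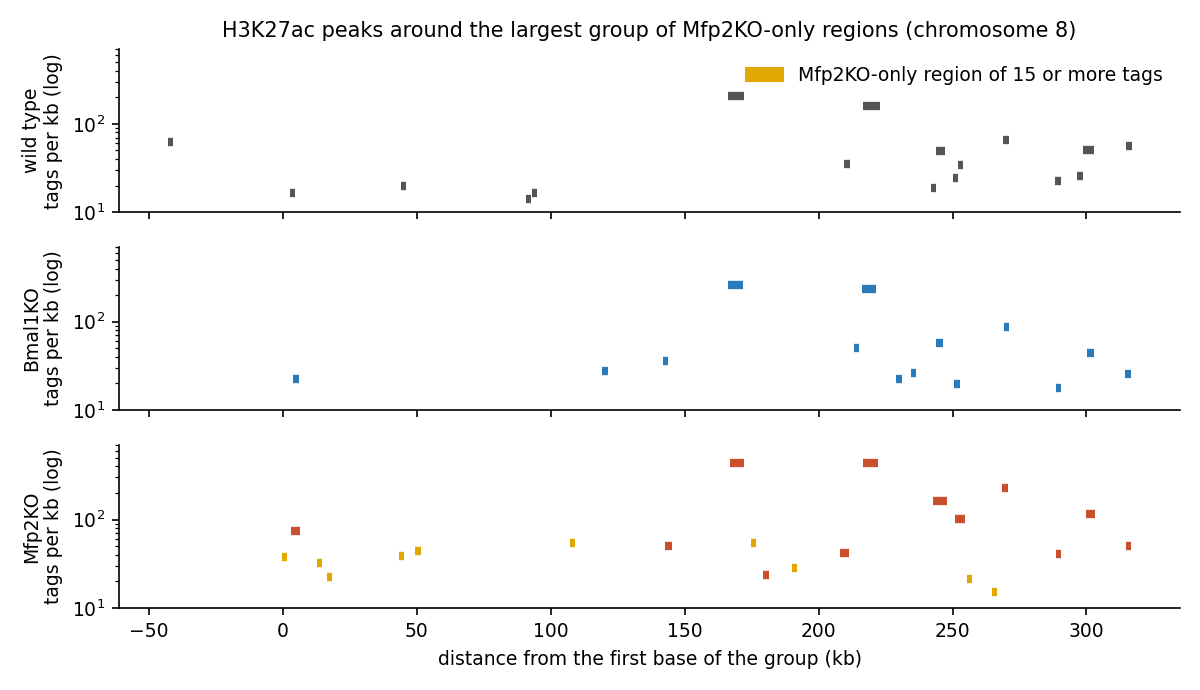
H3K27ac peaks of wild type, Bmal1KO and Mfp2KO (3 panels) around the largest group of Mfp2KO-only regions on chromosome 8. The horizontal axis is distance from the first base of the group (kb) and the vertical axis tags per kb (log scale); each mark spans its peak, drawn at least 2 kb wide, at the height of its density. Yellow marks are the 10 Mfp2KO-only regions, at 15.1 to 54.4 tags per kb, and the 2 densest Mfp2KO peaks, at 436 and 434, have wild-type and Bmal1KO peaks at the same places.

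A ratio above that of the chromosome 8 group was found in 16 other groups of 3 or more, with a highest value of 5.45. The group on chromosome 14 (25510336-25665970) had 8 regions of 16.2 to 119.8 tags over 156 kb, and its other Mfp2KO peaks held 1.31 times the wild-type tags, in 31.8 kb against 28.4 kb and with 1.17 times the tags per kb. The group on chromosome 5 (114904142-115103549) had 7 regions of 18.7 to 94.4 tags over 199 kb, with a ratio of 1.47 for its other peaks, which covered 19.8 kb against 21.8 kb at 1.62 times the tags per kb. Over the 136 groups of 3 or more with wild-type peaks between their outer edges, the median ratio was 1.47 and the quartiles were 1.01 and 1.92. In the 130 of them with other Mfp2KO peaks, the median ratio was 0.892 for called length and 1.61 for tags per kb. A further 10 groups had no wild-type peak between their edges.

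A small set was strong, enriched and set apart at once. Regions of 100 or more tags, 6-fold or more over input and over 5 kb from any other genotype's peak numbered 47 in Mfp2KO only, 9 in wild type only and 3 in Bmal1KO only. These limits were chosen after the values were seen and were applied to tags and fold as deposited. In regions with 1 peak in each list the median Mfp2KO to wild-type ratio was 1.70 for tags per kb and 1.18 for fold. The 47 were among 10451 regions with 100 or more Mfp2KO tags, a number to which the fold and distance limits were not applied. The matching numbers for the other genotypes are not given, so these counts are not compared as shares and do not show an excess in Mfp2KO. The 47 lay on 17 chromosomes, with a median of 140 tags, 9.31-fold enrichment, 1721 bp and 10.4 input tags per kb, and none exceeded 24.7 input tags per kb. Their median distance from another genotype's peak was 13573 bp. The flank ratio of Mfp2KO to wild type had a median of 1.90 in the 41 with flank peaks in both lists, with median ratios of 0.944 for called length and 1.65 for tags per kb. The distance limit takes wild-type peaks out of the nearest 5 kb, and other Mfp2KO-only regions stay in the sum. The 1.90 is thus partly built in. Over all Mfp2KO-only regions the median flank ratio was 1.61 at 100 to 200 tags and 1.59 at 200 or more. After division by the ratio of tags in peaks, 18 of the 47 still had 100 or more tags. That division left the fold as it was.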

How the data were processed

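The data are 3 peak lists, 1 for each ChIP library, with no pooling. HOMER findPeaks was run in histone mode with the matching input as control. It joined windows of 500 bp and, per the file headers, kept regions at 4-fold and a p-value of 0.0001 over input. The submitters' processing notes name build mm39 and, with no role or order, HOMER 5.1, MACS3 3.0.3, BWA 0.7.19-r1273, fastp 1.0.1, Picard 3.4.0 and SAMtools 1.23. Region tags are a deposited signal, given per 10 M tags of the ChIP library. Input tags of Mfp2KO and wild type are deposited without depth scaling, in steps of 0.5. Fold over input is the deposited ratio of depth-scaled ChIP to input tags. The deposited findPeaks score and clonal ratio were not interpreted. Sums of tags depend on how much was called, so covered lengths and tags per kb stand beside ratios of sums over groups and flanks, except in classes of tags.

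Merging, distances (edge to edge), shares with 95% Wilson intervals and quartiles were computed with Python 3.11.15, numpy 2.4.6, pandas 2.3.3 and scipy 1.17.1, and merging and distances were checked on simulated intervals. The members, the motif and gene lists and the limits were chosen with earlier results of these data known. Named regions were the 12 with most tags, the 10 of highest fold, the 10 most distant, the 5 windows of 5 Mb with most members, the 3 largest groups and the 3 on each side of the minimum. Gene starts and motifs were to be examined but were left out, because the tables used here are not of build mm39. Input ratios of chromosomes and windows compare Mfp2KO with wild-type input per kb over regions called in all genotypes. Alternatives were other tag minima, merging gaps, fold limits and tag scalings.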

Additional observations from a re-analysis of the deposited data

How the results depend on the processing

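The number of Mfp2KO-only regions stayed within 1.5 times the 1987 reported at a minimum of 20 tags (1388) and with peaks within 500 bp (1698) or 1000 bp (1472) merged, and moved further under the other limits. Their share, 11.6% as reported with an interval of 11.1 to 12.1, lay outside that interval under each of these limits. That is a narrower measure than the 1.5 times used for the number. With a minimum of 10 tags there were 3340 regions, a share of 17.2% and a median of 6.24 input tags per kb. With 20 tags the share was 8.71% and input 8.39 per kb. With 30 tags there were 793 regions, 5.52%, a median distance of 4849 bp and 9.32 input tags per kb. Merging peaks within 500, 1000 and 5000 bp gave shares of 10.03%, 8.99% and 6.03% and median distances of 5116, 6664.5 and 14897.5 bp, since merging removes near regions, and the widest gap left 826 regions. Requiring 6-fold enrichment of Mfp2KO peaks left 519 regions, 3.94%, 4618 bp and 5.20 input tags per kb. Scaling Mfp2KO tags to the wild-type share of tags in peaks left 1225 regions, or 7.87%. Raising the Mfp2KO fold limit by the median fold ratio to wild type, to 4.74, was chosen after seeing the data. It left 1240 regions, 7.97% and 6.35 input tags per kb. Centre-to-centre distances had a median of 5307 bp, and summed input over summed length was 8.46 per kb. Adding chromosome X gave 2008 regions and 11.5%.

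Of the 12 strongest regions, 7 remained with a 5000 bp gap, 8 with the 6-fold limit and 11 or 12 under the other settings run on them. Of the 10 with the highest fold, 2 remained at 30 tags. Of the 10 most distant, 3 remained at 6-fold.

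No paired analysis was possible because each genotype has 1 ChIP library, and none was left out for the same reason. Gene starts and motifs were not run. The caller required 10 tags in a window of the Mfp2KO library, or 6.34 per 10 M, so regions of 15 tags were not far above what the depth allows, and no replicate shows how many would be called again.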
